A study of Mus musculus with 20 samples.

Results

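Class B basic helix-loop-helix (bHLH) and HES motifs were taken from a deposited table of transcription factor footprints in mouse brain cells, by the names of their factors: MYC, MAX, MXI1, MLX, MNT, USF, TFE3, TFEB, TFEC, MITF, SREBF, BHLHE40, BHLHE41, HES, HEY, HELT, ARNT, CLOCK, NPAS, HIF1A, EPAS1 and AHR. The names found 63 of the 1205 motifs in the table, and no value chose them. HELT and EPAS1 found no motif. One of the 63, HESX1, is the motif of a homeodomain factor whose name merely begins with the same letters, and it is given apart where this matters. The cells descended from Nkx2.1-expressing progenitors, were GFP-positive and were sorted from the neocortex of WT mice and of mice that lack Tcf4 in this lineage (Tcf4 cKO). Tcf4 cKO mice carried floxed Tcf4 alleles and Nkx2.1-Cre, WT mice carried Nkx2.1-Cre, and an Ai3 reporter marked the lineage in both. The columns of the footprint table name postnatal day 7. ATAC-seq, which cuts open chromatin with a transposase, had 2 libraries per genotype, and Tcf4 itself was mapped by anti-Flag Cut&Tag in 2 libraries of a Tcf4-tag line. In this line Nkx2.1-Cre switched on a Flag/HA tag at the endogenous Tcf4 locus. Sorted cells of the Nkx2.1 lineage were used there too.

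bHLH factors bind DNA as dimers, and the dimer recognises a short palindromic site called an E-box. Class A factors such as Tcf4 and its partners bind E-boxes, and the core CAGCTG is called the class A E-box here. Whether Tcf4 itself favours CAGCTG over other E-boxes was not tested, since the motif matrices were not read. The class B factors MYC, MAX, USF, MITF, TFE, SREBF and BHLHE40 favour the site CACGTG. HES and HEY proteins are repressors, best known as targets of Notch signalling that hold back neuronal differentiation, and bind CACGTG, the related C site CACGCG and the N box CACAAG. bHLH-PAS factors such as HIF1A, CLOCK and AHR pair with ARNT or ARNTL and read oxygen, the circadian clock or ligands through sites with the cores ACGTG or GCGTG.

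The site that most of these motifs share is shown here as it lies in open promoters of the factors' own genes. Of the 49 genes for the factors and their close relatives, 8 had CACGTG within 75 bp of the summit of the strongest WT ATAC-seq peak at their promoter. The windows are from GRCm38 (mm10), on the plus strand, and the capitals mark the core.
Max: tcggccccctaaCACGTGaccgggctcacc
Mxd4: gcttagcaacagCACGTGgtggcccagccc
Hif1a: cacacagacaagCACGTGagcggggcagct
Mlxip: acccctacccacCACGTGgagtgccctcct
Mxd3: cggcctgggctaCACGTGcgcgcgggacgc
Bhlhe40: ccgcgtccgggcCACGTGaagcgtcacgcc
Mlx: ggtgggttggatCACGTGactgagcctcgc
Hes1: aaaacatcctggCACGTGctccgactccag
The Max window lies at chr12:76962234-76962263, that of Bhlhe40 at chr6:108659431-108659460, that of Mlx at chr11:101087238-101087267 and that of Hes1 at chr16:30064330-30064359. The core of Bhlhe40, a repressor that feeds back on the circadian clock, was 5 bp from the summit, whereas that of Hes1, the main Notch target of this family, was 57 bp away. With 1 flanking base on each side the core read TCACGTGA at Mlx, a partner of the glucose-sensing factors, and GCACGTGC at Hes1. Over all promoter peaks, CACGTG lay within 75 bp of the summit in 5.32% and 5.14% of those of the WT libraries. These shares count every promoter peak of a library, weak ones included, and not the strongest peak of each gene. They are therefore no background for the 8 genes, and no share per gene was counted.

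The deposited table gives each motif a mean footprint score per genotype over all its sites in open regions, and the number of sites called bound. The score rises with accessibility around a site and with the dip of insertions at the site. It came from 1 merged alignment per genotype, so each motif has a single value per genotype, no spread between libraries and no test. The motifs also share sites, so they are not independent of each other.

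Mean scores were lower in Tcf4 cKO for 61 of the 63 motifs, where 53.4% of all 1205 motifs were lower. The median log2 ratio of Tcf4 cKO over WT was -0.051 for the 63 motifs and -0.0028 for all motifs. The differences were small. A single member, MITF (MA0620.3), was lower by a log2 ratio of at least 0.1, where 1.66% of all motifs were, and 32 members were lower by at least 0.05, where 13.5% of all motifs were. No member was higher by 0.05, where 1.41% of all motifs were. The 2 motifs with a higher score were HESX1, with 0.204 in WT and 0.208 in Tcf4 cKO, and SREBF2 (MA0596.1), with 0.264 and 0.266.

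The lowest single motif belonged to the family of MITF and its relatives TFE3, TFEB and TFEC, which drive lysosome and autophagy genes (MITF also pigment cell genes). All 9 motifs were lower by at least 0.05, with a median of -0.082. MITF (MA0620.3) had a mean score of 0.376 in WT and 0.351 in Tcf4 cKO over 6920 sites, a log2 ratio of -0.10, and 1120 and 1088 bound sites. TFEC (MA0871.2) was the least changed of the family, at 0.473 and 0.452 (-0.066). TFE3 (MA0831.3) had 0.515 and 0.484 (-0.091). All of the family's motifs lay in 1 motif cluster of the table, together with 6 USF motifs and BHLHE41, and this cluster of 16 motifs had a median of -0.080.

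BHLHE40 and BHLHE41, repressors of clock genes, had 3 motifs, all lower by at least 0.05, with the lowest family median, -0.087. BHLHE41 (MA0636.1) had 0.563 in WT and 0.528 in Tcf4 cKO (-0.094), while its bound sites numbered 1302 and 1298. The least changed, Bhlhe40 (MA0464.1), had 0.297 and 0.287 (-0.052) with 1945 and 1940 bound sites. USF1 and USF2, widely expressed activators, had 7 motifs with a median of -0.065. They ran from USF2 (MA0526.4), with 0.534 and 0.504 (-0.083), to USF1 (MA0093.1), with 0.458 and 0.446 (-0.037).

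SREBF1 and SREBF2, the activators of lipid and cholesterol genes, bind both E-boxes and a separate sterol response element. Their 6 motifs split by cluster. The 4 of the SREBF2 cluster were lower, from SREBF2 (MA0828.2), with 0.444 in WT and 0.414 in Tcf4 cKO (-0.099), to SREBF1 (MA0829.2), with 0.311 and 0.299 (-0.057). The 2 of the SREBF1 cluster, SREBF1 (MA0595.1) and SREBF2 (MA0596.1), had ratios of -0.0015 and 0.011, and both had more bound sites in Tcf4 cKO, 1658 against 1631 and 1455 against 1420. The versions of SREBF2 alone spanned -0.099 to 0.011, wider than the whole range of the HES and HEY motifs.

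The MYC, MAX and MLX network, in which MYC activates and MXI1 and MNT repress growth genes as partners of MAX, had 17 motifs, all lower, with a median of -0.046. The largest difference was that of MLX (MA0663.1), with 0.508 in WT and 0.480 in Tcf4 cKO (-0.081), and the smallest that of Myc (MA0147.2), with 0.263 and 0.261 (-0.014). Versions of 1 factor's motif again set the value. The 3 motifs of the Myc cluster, for Myc, MAX and MXI1, had 15435 to 18357 sites, WT scores from 0.207 to 0.263 and a median ratio of -0.018, whereas the 15 members of the MNT cluster had a median of 7850 sites, a median WT score of 0.443 and a median ratio of -0.043. The rows for Mycn (MA0104.1) and Arnt (MA0004.1) held identical values, 12584 sites with scores of 0.443 and 0.427, and are thus a single measurement listed for both factors.

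The 3 highest WT scores among the members were those of HES1, Hes1 and HES2, while Hes2 (MA0616.1) was at 0.318. HES1 (MA1099.2) had a mean score of 0.730 in WT and 0.707 in Tcf4 cKO (-0.047), and 43.1% of its 9317 sites were bound in WT (Wilson 95% interval 42.1 to 44.1) against 42.7% in Tcf4 cKO (41.7 to 43.7). These intervals overlap, but both shares are over the same sites, so the overlap does not decide whether the genotypes differ. Like all intervals given here, they cover counting error over sites or peaks only. All 10 motifs were lower, from HEY1 (MA0823.1), with 0.493 and 0.476 (-0.052), to Hes1 (MA1099.1), with 0.709 and 0.696 (-0.026). HEY1 had 1717 bound sites in WT and 1716 in Tcf4 cKO, and HES7 had 1205 and 1217.

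The 10 bHLH-PAS motifs were also all lower, with a median of -0.038. ARNT2 (MA1464.1), a general partner subunit, had 0.520 in WT and 0.491 in Tcf4 cKO (-0.083), and Arntl (MA0603.1), the partner of CLOCK, had 0.503 and 0.476 (-0.080). CLOCK itself was at -0.028 and -0.027 in its 2 versions, and HIF1A (MA1106.1), which responds to low oxygen, at -0.043. Ahr::Arnt (MA0006.1), the dioxin receptor motif, was nearly equal, at 0.416 in both genotypes with 4572 and 4594 bound sites. Npas4, induced by neuronal activity, had 829 bound sites in WT and 798 in Tcf4 cKO, a log2 ratio of -0.055.

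Bound sites moved less than the scores. They were fewer in Tcf4 cKO for 56 of the 63 motifs, where 48.3% of all motifs had fewer. Their median log2 ratio was -0.015 over the 63 motifs and 0.0013 over all motifs, and no member lost bound sites by a log2 ratio of 0.1, where 4.15% of all motifs did. MXI1 (MA1108.2) and Npas4 were the 2 that lost them by at least 0.05, where 15.3% of all motifs did. The score ratio lay below the ratio of bound sites in 59 of the 63 motifs, where 61.6% of all motifs had this order. The 4 exceptions were the 3 motifs of the Myc cluster and Npas4. Class A bHLH motifs, 60 in number, differed in this: 14 had the score ratio below the bound ratio. Their median log2 ratio was -0.075 for the score and -0.13 for bound sites. The motifs of Tcf4 itself were less changed. For score and bound sites, TCF4 (MA0830.1) was at -0.050 and -0.052, and TCF4 (MA0830.2) at -0.038 and -0.035. By both measures at once, 42 of the 60 class A motifs and none of the 63 members were lower by at least 0.05, where 6.72% of all motifs were. The score alone passed this in 32 members and in no class A motif, where 6.80% of all motifs did. These differences were not tested, since motifs share sites.

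**Figure D1:**
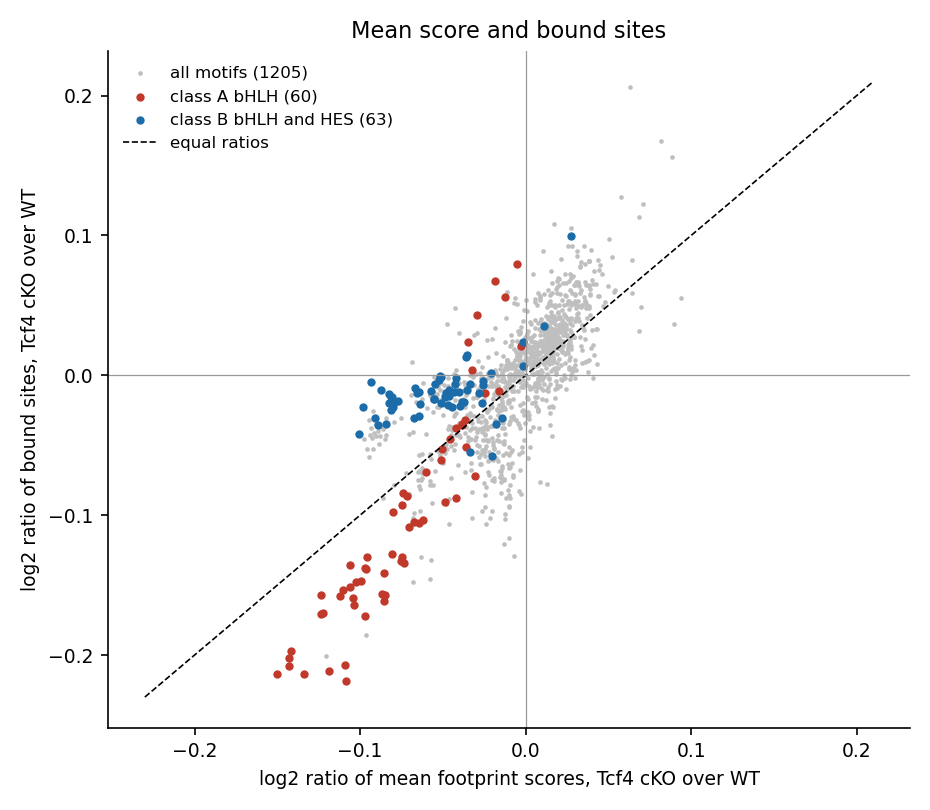
Log2 ratio (Tcf4 cKO over WT) of the mean footprint score, on the horizontal axis, and of the number of bound sites, on the vertical axis, for each motif. The class B bHLH and HES motifs mostly lie in a flat band, 59 of the 63 above the dashed line of equal ratios. Their median for bound sites is -0.015. Most class A motifs lie below the line, with a median of -0.13.

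The footprint table holds no values per library, so the shared core was counted in the peaks of each ATAC-seq library. CACGTG lay within 75 bp of the summit in 3.63% and 3.31% of WT peaks and in 3.23% and 3.29% of Tcf4 cKO peaks (replicates 1 and 2). Both WT libraries were higher than both Tcf4 cKO libraries, but WT replicate 2 was only just so. The WT mean was 3.47% ± 0.22 and the Tcf4 cKO mean 3.26% ± 0.042 (SD over 2 libraries), which gives a difference of -0.21 percentage points that was -0.051 without WT replicate 1. An exact two-sided permutation test gave p = 0.33, the smallest value that 2 against 2 libraries allow. With windows of 50 or 150 bp on each side the genotypes overlapped (differences of -0.12 and -0.23 percentage points, exact permutation p = 0.67 for both). The libraries held 54159 to 72306 peaks, and the number of reads behind them is unknown.

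Promoter peaks (summit within 1 kb of a transcription start) and distal peaks were then taken apart, since promoters made up from 27.4% of the peaks of WT replicate 2 to 34% of those of WT replicate 1. In distal peaks CACGTG was found in 2.75% and 2.62% of WT and 2.45% and 2.46% of Tcf4 cKO peaks. In promoter peaks it was found in 5.32% and 5.14% of WT and 4.98% and 5.09% of Tcf4 cKO peaks. The genotypes did not overlap in either, with an exact permutation p of 0.33 for each. In windows 1000 bp to the right of the summits the order was the other way, with means of 2.15% for WT and 2.22% for Tcf4 cKO. The class A E-box CAGCTG, by comparison, was in 17.0% ± 0.044 of WT and 14.3% ± 0.034 of Tcf4 cKO distal peaks, and the NFI half-site TTGGCA was at 11.3% ± 0.056 and 12.7% ± 0.23 (exact permutation p = 0.33 for both).

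The other cores of the members did not all follow CACGTG. The M box core CATGTG, used by MITF and also by class A dimers, was in 10.4% ± 0.21 of WT and 9.68% ± 0.13 of Tcf4 cKO distal peaks, and the N box CACAAG in 12.4% ± 0.092 and 11.9% ± 0.045, with no overlap in either. In promoter peaks the genotypes overlapped for both, at 4.62% ± 0.29 and 4.51% ± 0.19 for CATGTG and 6.18% ± 0.30 and 6.23% ± 0.13 for CACAAG. The HES and HEY C site CACGCG was in 10.0% ± 0.59 and 10.1% ± 0.14 of promoter peaks, and its genotypes overlapped there and in distal peaks. GCGTG, the core of the AHR site, overlapped between genotypes as well, at 17.7% ± 1.74 and 17.8% ± 0.15 of all peaks.

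**Figure D2:**
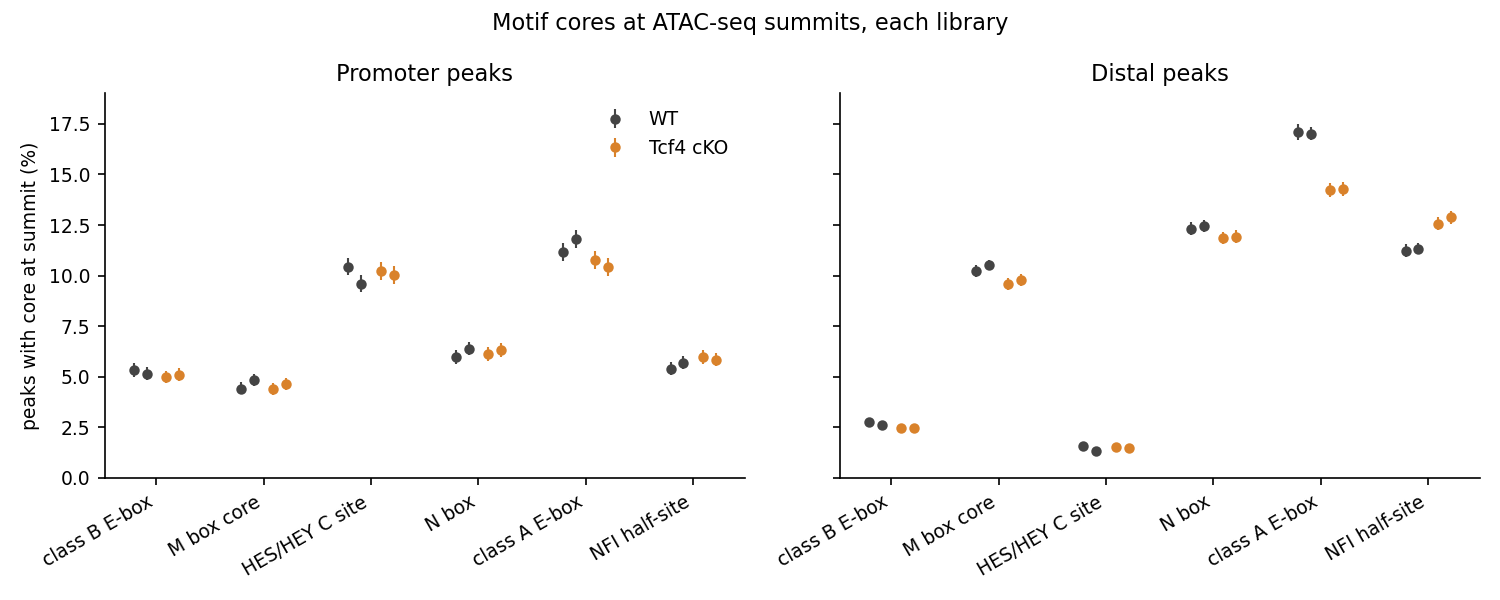
Percent of promoter peaks (left) and distal peaks (right) with each motif core within 75 bp of the summit. Each point is 1 ATAC-seq library, and bars are Wilson 95% intervals. The class B E-box differs by -0.20 percentage points (Tcf4 cKO minus WT) at promoters and -0.23 at distal peaks, less than the class A E-box does in either panel.

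Peaks with different bases beside the core differed in how many were promoter peaks. Over the 4 ATAC-seq libraries, 42.6% to 49.9% of the peaks with CACGTG were promoter peaks. The range was 66.1% to 75.1% for TCACGTGA, 37.9% to 44.6% for CCACGTGG, 37.7% to 44.9% for GCACGTGC and 20.6% to 31.8% for ACACGTGT, so the first lay above the range of the core as a whole and the last below it. For CAGCTG the range was 20.7% to 25.2%. In the WT libraries the median fold enrichment of promoter peaks was 9.35 and 9.18 with TCACGTGA, 8.26 and 8.40 with CCACGTGG, 8.63 and 8.41 with any CACGTG, and 7.69 and 7.65 over all promoter peaks.

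Accessibility at the sites was compared in the 32120 consensus regions, for which the authors give a mean log2 normalized read number per genotype. These are the authors' means, without values per library. The 956 regions with CACGTG within 75 bp of their centre had a median difference (Tcf4 cKO minus WT) of -0.11, and all regions had -0.095. Of the 956, 11.7% (9.83 to 13.9) were lower by at least 0.5 and 6.38% higher, where all regions gave 12.6% and 8.38%. Both shares of the core's regions were at or below the background. At promoters, 16 of 486 regions with CACGTG were lower and 7 higher, 3.29% and 1.44%, where all promoter regions gave 3.2% and 1.98%. At distal regions alone, 20.4% of the 470 with CACGTG were lower and 11.5% higher, where all distal regions gave 19.8% and 13.3%. The class A E-box stood away from the background, with 33.8% (32.1 to 35.5) of 2830 distal regions lower. Among the members' other cores, CATGTG was lower in 24.7% (22.7 to 26.9) of distal regions and higher in 11.3%. CACAAG gave 22.2% (20.4 to 24.1) and 11.9%, and ACGTG 20.1% (18.2 to 22.1) and 9.86%. GCGTG gave 16.9% (15.5 to 18.5) and 10.7%, and CACGCG 11.2% (8.28 to 14.9) and 5.16%. CACGCG regions thus passed 0.5 less often than all distal regions in both directions.

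**Figure D3:**
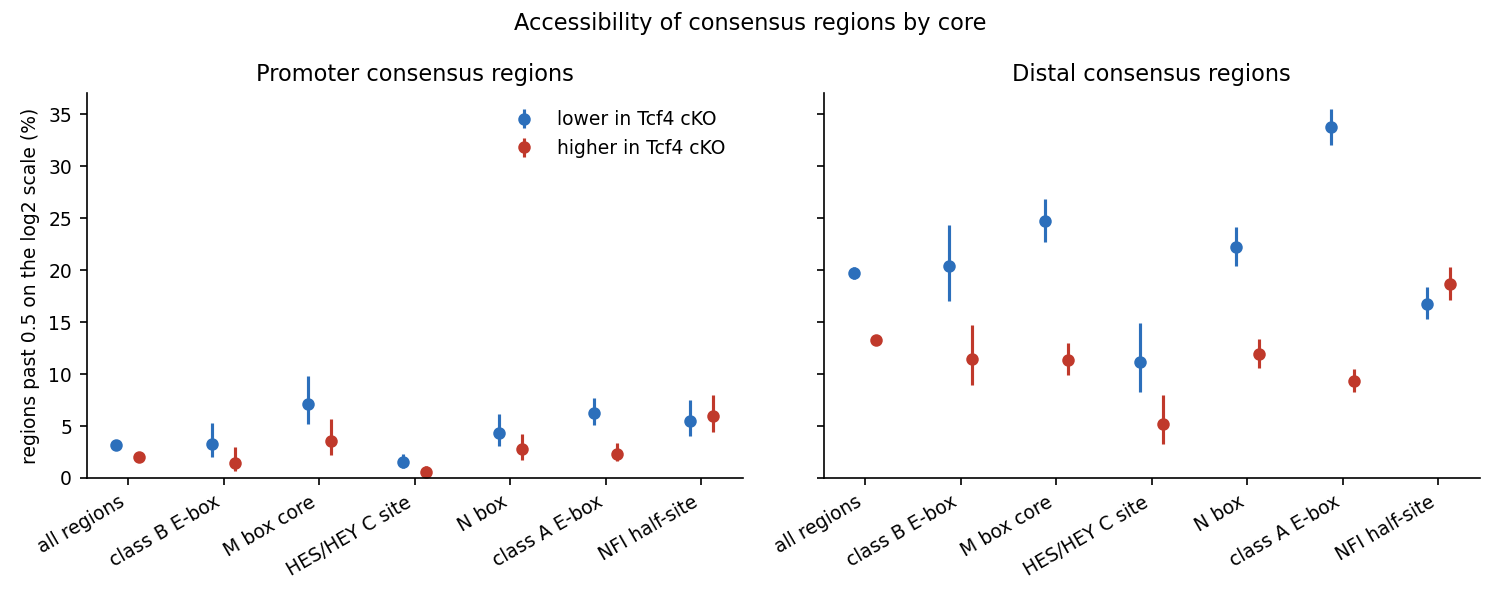
Percent of consensus regions lower (blue) or higher (red) in Tcf4 cKO by at least 0.5 on the log2 scale, by the core within 75 bp of the region centre, at promoters (left) and distal regions (right). Bars are Wilson 95% intervals. At distal regions the class B E-box lies near all regions, at 20.4% lower against 19.8%, and the class A E-box at 33.8%.

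The genes that encode the factors were then examined. In bulk samples of sorted cells, fewer cells of a type and less open chromatin per cell cannot be told apart. Promoter peaks were found in all 4 ATAC-seq libraries at 4 of 5 markers of the oligodendrocyte lineage, 4 of 5 of interneurons, 3 of 5 of astrocytes, 1 of 3 of projection neurons, 1 of 4 of microglia and 1 of 3 of endothelium. These were 14 of the 25 markers, where 65.2% of protein-coding genes had such peaks. An open promoter alone does not show that a cell type was present. Of the 49 factor genes, 45 had a promoter peak in all 4 libraries, where 65.2% of 21924 protein-coding genes did. None had one in both libraries of one genotype and neither of the other, a pattern that 0.552% (WT) and 0.255% (Tcf4 cKO) of all genes had. Hes7, Helt and Tfec had none in any library, and Hes2 had one in 1 library of each genotype. All 13 genes of the MYC, MAX and MLX network and all 16 bHLH-PAS genes had peaks throughout. Tcf4 peaks lay at 31 of the 49 promoters in both anti-Flag libraries, where 39% of all genes had them, among them Hes1, Hes6, Hey1, Hey2, Max and Myc. H3K27ac, a mark of active promoters, had peaks in both libraries at 31 promoters in WT and 32 in Tcf4 cKO, where 53.7% and 50.7% of all genes had them. H3K27me3, the Polycomb mark, did so at 24 and 20 promoters, where 17.2% and 17.4% of all genes had it. A larger share of the 49 promoters than of all genes was open, and shares among open promoters alone were not counted. These counts include weak peaks. With a cutoff of 5 on -log10 q, H3K27me3 remained in both libraries at 8 promoters in WT and 7 in Tcf4 cKO. H3K27ac remained at 18 and 19, and Tcf4 at 19. Of the Tcf4 genes named above, Hey1 and Myc were still included. No share of all genes was counted with this cutoff.

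Consensus regions whose nearest gene was on the list numbered 107 at 47 genes. Of these, 12 were lower and 12 higher in Tcf4 cKO by at least 0.5, 11.2% each, beside the 12.6% and 8.38% of all regions. HES and HEY genes had 3 lower and no higher region of 13. The Hes1 promoter region (chr16:30063201-30064889), which holds 2 copies of CACGTG, had authors' means of 9.57 in WT and 8.95 in Tcf4 cKO, a difference of -0.61. Its peak had a fold enrichment of 4.12 and 3.65 in the WT libraries and 3.65 and 3.32 in the Tcf4 cKO libraries, and WT replicate 2 and Tcf4 cKO replicate 1 were about equal. A region 8348 bp from Hes2 (-1.18) and an intronic region of Heyl (-0.82) both had Tcf4 peaks in the 2 anti-Flag libraries. The Hes1 promoter region had one in 1 of them. The Hes2 region had fold enrichments of 7.74 and 7.39 in WT and 3.76 and 3.42 in Tcf4 cKO. No peak was called at the Heyl region in Tcf4 cKO replicate 2, where the other 3 libraries had 2.94 to 6.10.

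The MYC, MAX and MLX network had 6 higher and 2 lower regions of 27, 22.2% and 7.41%, beside 8.38% and 12.6% of all regions. The 6 higher regions lay outside promoters. Promoter regions of the same genes stayed within 0.5, such as that of Max at -0.094 and those of Myc at -0.18 and -0.15. An intronic region of Max (chr12:76954771-76955637), with 1 CACGTG, had means of 5.08 in WT and 7.12 in Tcf4 cKO (2.04). Its fold enrichment was 7.38 and 8.10 in the Tcf4 cKO libraries and 3.78 in WT replicate 2, and WT replicate 1 had no peak. A distal region nearest to Max (1.30) showed the same order of libraries, with no peak in WT replicate 1, 4.95 in WT replicate 2, and 7.89 and 10.1 in Tcf4 cKO. A region at -294420 bp from the start of Myc, also with 1 CACGTG, was higher by 1.80. The others were regions of Mnt (0.84), Mycn (0.75) and Mxi1 (0.58), whereas other regions of Mycl (-0.74) and Mycn (-0.63) were lower. The fold enrichments of the higher Mycn region overlapped between genotypes, at 5.81 and 8.71 in WT and 8.65 and 5.44 in Tcf4 cKO, as did those of the Mxi1 region, at 7.78 and 7.76 in WT and 7.86 and 5.93 in Tcf4 cKO. None of the 6 higher regions had a Tcf4 peak in either anti-Flag library. The lower Mycn region had none either, and the lower Mycl region had one in both. The share of all consensus regions with a Tcf4 peak was not counted, so these counts have no background.

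Among the other families, 2 regions of Tfeb, both at promoters, were lower (-1.27 and -1.19), with WT means of 6.49 and 6.22. The first of these had Tcf4 peaks in both anti-Flag libraries and the second in neither. Other promoter regions of Tfeb, with higher WT means of 8.94 and 8.66, were at 0.0033 and 0.088. A distal region nearest to Mitf was higher (0.64), with overlapping fold enrichments of 6.30 and 8.33 in WT and 10.6 and 7.31 in Tcf4 cKO. Of 3 promoter regions of Srebf1, 1 was higher by the authors' means (0.62), and the others were at -0.11 and 0.084. The fold enrichment of the higher one did not follow, at 4.41 and 4.76 in WT and 4.16 and 4.58 in Tcf4 cKO. Npas3, a bHLH-PAS gene of the developing brain, had 2 lower regions (-1.87 and -0.63) and 1 higher (0.59). The first, with 2 copies of CAGCTG and Tcf4 peaks in both anti-Flag libraries, had fold enrichments of 9.09 and 8.40 in WT, 5.45 in Tcf4 cKO replicate 2 and no peak in Tcf4 cKO replicate 1. The second lower Npas3 region had no Tcf4 peak. Npas4 (-0.87), Epas1 (-0.63) and Npas1 (-0.62) had 1 lower region each, and that of Npas1 had overlapping fold enrichments, 9.45 and 8.55 in WT and 9.20 and 8.19 in Tcf4 cKO. Tcf4 peaks lay at the Npas1 region in both anti-Flag libraries, at the Epas1 region in 1 and at the Npas4 region in neither. Arntl (1.10), Hif1a (0.67) and Arntl2 (0.64) had 1 higher region each. That of Arntl had a Tcf4 peak in 1 anti-Flag library, and the other regions had none. The fold enrichments of the Hif1a region overlapped between genotypes, at 7.44 and 9.12 in WT and 7.78 and 6.88 in Tcf4 cKO. No region of Usf1, Usf2, Bhlhe40 or Bhlhe41 passed 0.5.

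**Figure D4:**
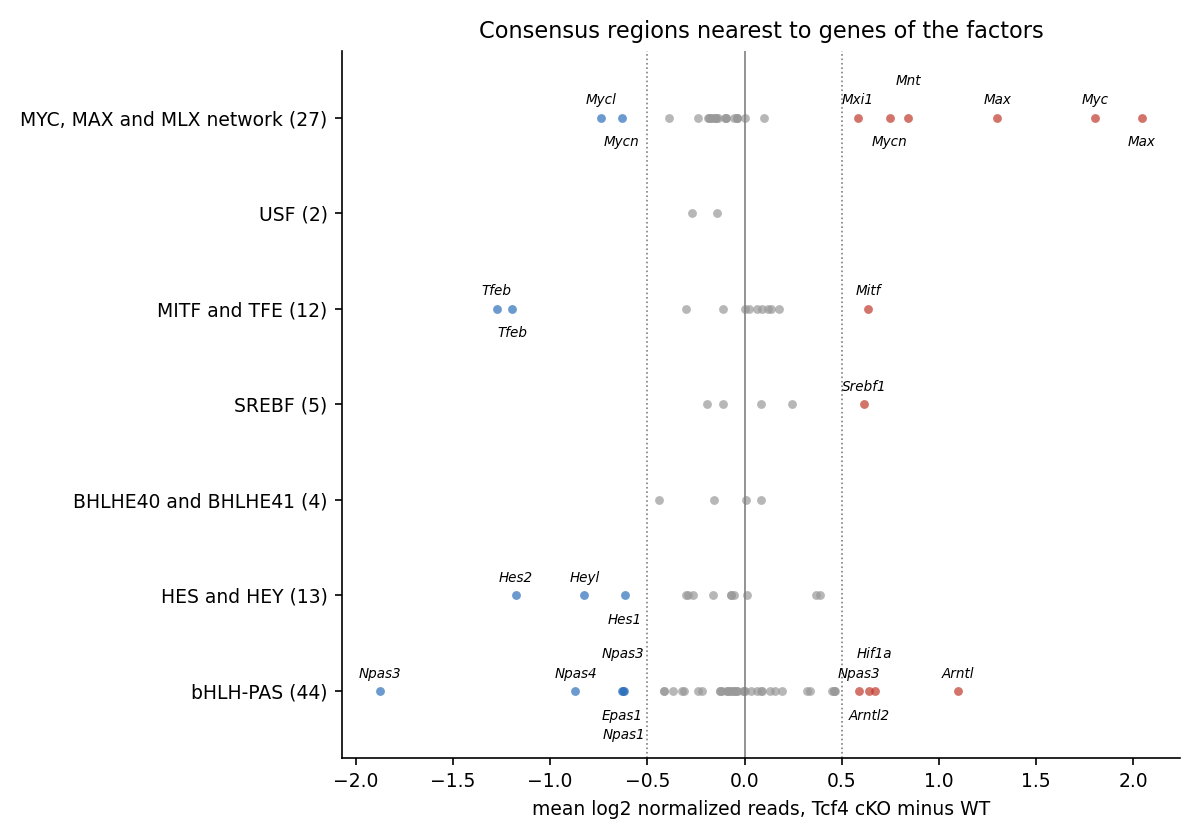
Difference of the authors' mean log2 normalized reads (Tcf4 cKO minus WT) for each consensus region nearest to a gene of the factors, in rows by family with the number of regions in brackets. Dotted lines mark 0.5 either way, and regions beyond them are named by gene. HES and HEY genes have 3 regions on the left and none on the right, and the MYC, MAX and MLX network has 2 and 6.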

How the data were processed

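ATAC-seq, histone mark Cut&Tag (H3K4me1, H3K27ac and H3K27me3, 2 libraries per genotype) and anti-Flag Cut&Tag libraries were grouped by their labels. The authors trimmed reads with Trim Galore, mapped them on mm10 using Bowtie 2, dropped duplicates and ran MACS2 separately for every library. The deposited peak lists give a fold enrichment, used here as a ratio to local background, and a -log10 q. The authors merged the alignments of each genotype and ran TOBIAS, and the deposited footprint table gives a mean score, counts of sites and of bound sites, a change and a p-value per motif. The deposited consensus table gives mean log2 normalized reads per genotype, and a fold change, p-value and FDR from DiffBind. The change, fold change, p-value and FDR columns hold the authors' own comparisons and were not used. The motif matrices were not read here. Read depth is unknown, so precision rests on peak and site numbers.

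Log2 ratios, shares with Wilson 95% intervals and exact two-sided permutation tests over libraries (n = 2 against 2) came from scripts in Python 3.11.15 that used pandas 2.3.3, numpy 2.4.6, scipy 1.17.1 and pysam 0.24.0. The ratios, the search for cores and the intervals were tested on simulated data, and the assignment of peaks to genes was not. No pseudocount was needed and no motif was filtered. A core counted on either strand of GRCm38 if it lay up to 75 bp from a summit or region centre. They overlap, since every CACGTG holds ACGTG. Peaks outside the reference chromosomes, 19 in all ATAC-seq and anti-Flag lists, were left out. Promoter peaks and the promoters of genes are within 1 kb of a GENCODE M21 start. For consensus regions, the promoter label, the nearest gene and the distance to it are those of the authors' annotation. Where several peaks lay at a promoter, the strongest by -log10 q was taken, and where several overlapped a consensus region, the highest fold enrichment is given. Motifs with the highest and lowest ratio of each family and at each end of the list, and genes with a region past 0.5, are named. CREB, JUN and ETS motifs and the flanked cores were chosen after their values were seen. The members and lists were chosen with earlier results of these data known. Whether the replicates came from separate animals is not stated, so their spread may be technical. Single-cell libraries were not analysed here.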

Additional observations from a re-analysis of the deposited data

How the results depend on the processing

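The 63 motifs kept a lower median score when centred on the median of all motifs, with 1 median per cluster, without HESX1 and without 1 of the identical rows. By bound sites the median log2 ratio was -0.015, and by the bound share -0.22 percentage points. The number of motifs past the limit was 32 at a limit of 0.05, 0 at 0.2, 0 after centring, 0 by bound sites and 0 with 1 median per cluster. The difference in the share of peaks with CACGTG ran from -0.37 to -0.051 percentage points when 1 library was left out, and kept its sign at 50 and 150 bp, at a -log10 q of at least 5, in 20000 peaks and in promoter and distal peaks apart, though the genotypes overlapped at 50 and 150 bp. Regions outside promoters with CACGTG were lower in 20.4% and higher in 11.5%, and at a difference of 1 all regions with it gave 3.45% and 2.20%. The number of factor genes with peaks in all libraries stayed at 45 when 1 library was left out (45 to 45). A replicate block on the share of peaks with CACGTG left the difference at -0.21, with an exact sign-change p of 0.5, the smallest that 2 pairs allow; nothing shows that the numbers pair the libraries. No paired analysis was possible for the footprint and consensus values because each genotype has 1 value.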

Other observations

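The flat band of lower scores with little change in bound sites was not particular to class B bHLH and HES motifs. Of the 1142 other motifs, 50 were lower in score by a log2 ratio of at least 0.05 without losing bound sites by as much. That was 4.38%, beside 50.8% of the members. Of the 50, 23 were motifs of CREB, ATF, FOS or JUN factors, which include the cAMP response element type. They were 38.3% of the 60 motifs of these factors. CREB3L4, for example, had a mean score of 0.710 in WT and 0.665 in Tcf4 cKO (log2 ratio -0.095), with 1835 and 1795 bound sites. The rest included ETS motifs such as ETV6 and ELK1. SOHLH2, which shared the MNT cluster with members, and the composites ERF::SREBF2 and ELK1::SREBF2 were also among them. These motifs were picked after their values were seen.

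Of 167 other motifs at or above the members' median WT score, 86 were lower, with a median log2 ratio of -0.0013. Over all 1205 motifs, Spearman's rho between the WT score and the score ratio was -0.14, and over the 63 members -0.45, as descriptions across motifs that share libraries and sites.

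In the anti-Flag libraries, CACGTG lay within 75 bp of 2.76% and 2.81% of Tcf4 summits, and CAGCTG within 75 bp of 14.2% and 15.4%.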
